A study of Mus musculus with 8 samples.

Results

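The comparison set the 4 serum exosome libraries from mice bearing canine osteosarcoma cells against the 4 libraries from mice without them, and used all 8 of the 8 libraries in the study. The members were taken from the sample labels alone, and the measurements described are those of mouse genes after the libraries were brought to a common scale on the bulk of mouse genes. All animals were NCr nu/nu mice, an athymic strain that lacks mature T cells and accepts grafts from other species. The tumour side held 2 libraries from mice given 100000 cells of the dog osteosarcoma line OSCA-32 and 2 from mice given as many cells of OSCA-40, each in 10 µl injected into the tibia and sampled at week 8. The tumour-free side held 2 libraries of serum pooled from all mice at week 0, before injection, and 2 from mice given phosphate-buffered saline (PBS) into the tibia and sampled at week 8. Each line is a single culture of tumour cells, and the tumour side has no week 0 sample of its own. As the week 0 serum was pooled from all mice, its 2 libraries cannot be read as separate animals, and the pool took in mice grafted later. The tests still count them as 2 of the 4 tumour-free libraries. For the other groups, whether the 2 libraries came from separate animals is not stated. The spread that p-values are measured against is thus that of these libraries, and it may be purely technical. The question addressed was which host transcripts in serum separate animals with a graft from those without, whichever line was grafted.

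Exosomes are small membrane vesicles that cells release into body fluids with some of their cytoplasm, including fragments of RNA. In blood most vesicles and cell-free transcripts come from platelets, red cell precursors, leukocytes, endothelium and liver, and reagents that precipitate vesicles also bring down lipoproteins and other carriers of RNA. Mitochondria hold their own small genome, whose transcripts encode subunits of the respiratory chain and the ATP synthase, and stretches of that genome have been copied into nuclear chromosomes during evolution.

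Mouse genes held 82.6% to 85.3% of the deposited total in the tumour-free libraries, 55.3% and 56.7% in OSCA-32, and 31.6% and 29.3% in OSCA-40, with the rest in canine genes. A mouse value of 1 in the table was therefore worth 2.86 and 3.03 units of the common scale in the OSCA-40 libraries. The values are relative amounts made whole, comparable between genes per length, and the depth behind them is unknown. All values below are on the common scale unless called deposited, and fold changes are differences of log2(value + 1) between the sides, relative to a median of -0.002 over all tested mouse genes. With library totals alone that median was -0.98. The label of serum exosomes was checked against 25 vesicle components. All 25 were listed above 0 in at least 1 library. Such listing cannot decide on the label, because each tumour-free library listed 28072 to 28467 of 31300 mouse genes at 1 or more. The summed level of the 25 was 374 to 429 in tumour-free and 258 to 357 in tumour libraries. The tetraspanins Cd63 and Cd81 stood below the level needed for testing, whereas Cd9 reached 183 to 230 in the tumour-free libraries. In serum, fewer vesicles from a source and less RNA in each vesicle cannot be told apart. The canine share moved with the side throughout, and whether canine reads were assigned to mouse genes was not tested.

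Of 6052 mouse genes with a mean of at least 10, 79 (1.31%) passed an adjusted p of 0.05 in limma. These were 46 genes higher with tumours (0.76%) and 33 lower (0.545%), and 953 genes had an unadjusted p under 0.05. By the values themselves, all 4 tumour libraries stood above all 4 tumour-free libraries for 340 genes (5.62%) and below them for 285 (4.71%). Most of these separations were narrow. The median gap between the nearest libraries of the sides was 0.12 on the log2 scale for the higher genes and 0.11 for the lower, and a gap of at least 1 was found for 11 and 3 genes. Of the 79 genes called, 78 were also completely separated, and the exception was Gm10222, a nuclear copy of a mitochondrial gene. The filter on the mean over all libraries let in 10 of the 46 higher genes with a tumour-free mean under 10, and 1 of the 33 lower genes with a tumour mean under 10. Such genes could enter only with a difference between the sides.

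**Figure D1:**
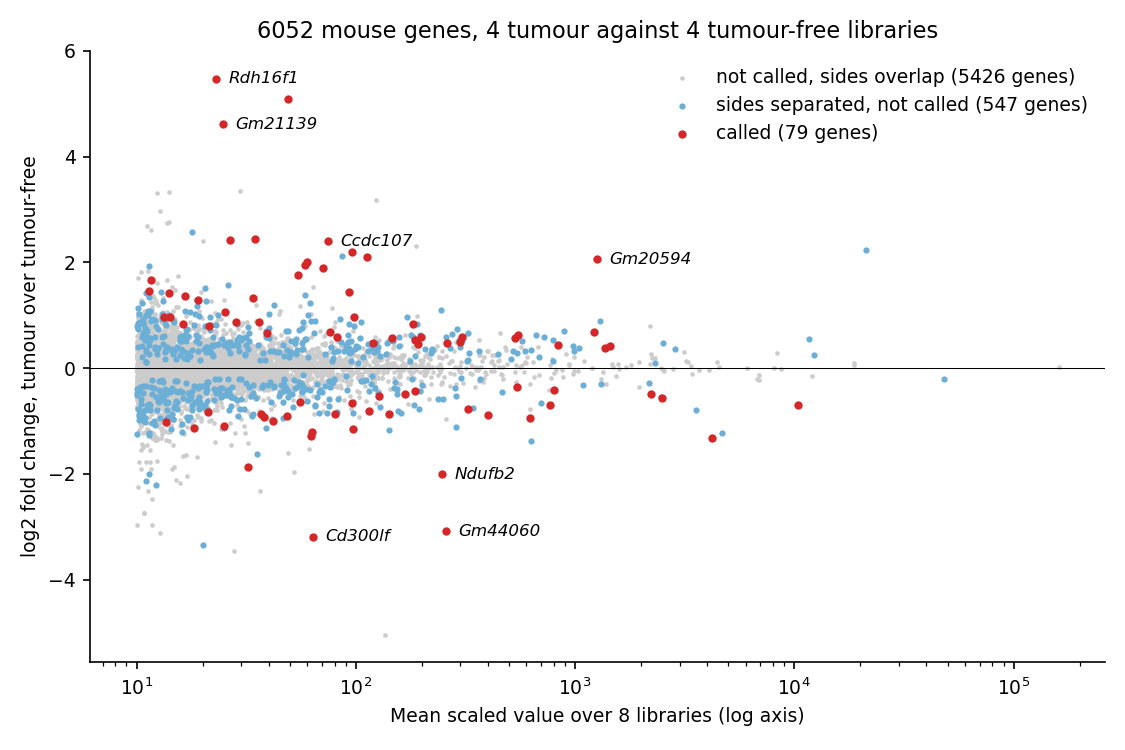
Each point is 1 of 6052 mouse genes, with its mean scaled value over the 8 libraries on a log axis and its log2 fold change of tumour over tumour-free libraries. Red marks the 79 genes called by limma and blue the 547 that were separated without being called; Cd300lf, Ndufb2 and Gm44060 lie lowest among the labelled genes, and Rdh16f1 and Gm21139 highest.

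The direction of the higher genes rests on the common scale. As deposited, 8 of the 340 higher genes kept all 4 tumour libraries above all tumour-free ones, namely Apoe, Ccdc107, Tmsb4x, Pf4, Rdh16f1, Gm20594, Gm21139 and Gm29013. All 285 lower genes were separated as deposited too, but no other outcome was possible. The scaling raised every tumour library relative to every tumour-free one, so a gene separated as lower after scaling was already so before. The 285 therefore cannot show that the lower genes depend less on the common scale than the higher ones. Among the genes with a call, the higher ones had a median log2 fold change of 0.96 and the lower ones of -0.86. Genes called lower stood at a median of 147 in the tumour-free libraries and genes called higher at 30.1, where the median tested gene stood at 17.5. The genes called higher had a median exonic length of 2712.5 bases and those called lower of 3131 bases, against 4786 over all tested genes. Pseudogenes made up 27.3% of the genes called lower and 15.2% of those called higher, against 11.7% of all tested genes.

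Ccdc107 (GRCm38 chromosome 4, 43492900 to 43495921, protein coding), which encodes a membrane protein with a coiled-coil domain, had a wide separation of the sides. Of its 1547 exonic bases, 124 (8.02%) lie opposite Rmrp, a non-coding RNA gene on the other strand. It stood at 18 and 23.6 at week 0, 22.3 and 28.6 with PBS, 104 and 112 in OSCA-32, and 155 and 136 in OSCA-40. Every tumour library was thus far above every tumour-free library, and the lines lay close to each other. The gene rose by 2.40 ± 0.17 on the log2 scale (SE, 4 against 4 libraries, adjusted p = 0.000232 in limma). Ttyh1, a member of the tweety family of anion channels, stood at 40, 54.0, 55.4 and 51.5 without tumours, against 118, 141, 146 and 142 on the tumour side. It rose by 1.44 ± 0.12 (adjusted p = 0.000612, limma), and no difference between the lines was called (adjusted p = 0.669). Both genes kept their call without each of the 8 libraries in turn.

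Of 8 tested genes typical of platelets and megakaryocytes, Tmsb4x and Ppbp rose. Tmsb4x (chromosome X, 167207093 to 167209315), the actin-binding thymosin beta that platelets hold in large amounts, stood at 36 and 35.3 at week 0 and at 41.8 and 40 with PBS. It reached 121 and 90.7 in OSCA-32 and 272 and 267 in OSCA-40, so that each tumour library was more than 2-fold above each tumour-free one. Tmsb4x rose by 2.11 ± 0.33 (adjusted p = 0.0165, limma). Ppbp (chromosome 5, 90768518 to 90770063), a chemokine of platelet granules, stood at 7, 5.89, 6.80 and 8.58 without tumours, against 20, 13.9, 25.8 and 24.2 on the tumour side. It rose by 1.42 ± 0.23 (adjusted p = 0.0172), with both lines above both tumour-free groups. Its tumour-free mean of 7.07 was under the filter, so it was tested only through its tumour values. Pf4, the neighbouring platelet factor gene, stood at 29.0, 16.7, 37.9 and 28.6 without tumours, 65.6 and 64.2 in OSCA-32, and 243 and 209 in OSCA-40. Its sides were separated too, but its fold change of 2.13 ± 0.47 missed the threshold (adjusted p = 0.0544), and the lines lay far apart.

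Over the platelet and megakaryocyte list, 8 of 23 genes were tested, 2 of these through the tumour side alone. In all 2 rose, none fell, and 3 were separated. Fold changes were positive for 6 of the 8 tested and negative for 2, down to -0.43. The summed level of the 23 genes was 287 to 336 in tumour-free and 403 to 847 in tumour libraries. Tmsb4x alone held 35.3 to 41.8 of this sum without tumours and 90.7 to 272 with them. The values of Pf4 given above are also part of it. Itga2b, the platelet integrin alpha chain, had a log2 fold change of 0.09 ± 0.23 and Vwf, an adhesive protein of platelets and endothelium, of 0.23 ± 0.10, neither past the threshold. Surface receptors below the level needed for testing varied. Gp9, Gp5 and Gp1ba never exceeded 6.80. Treml1 stood at 3.93 to 7 without tumours, 4.28 and 6.97 in OSCA-32, and 14.3 and 15.2 in OSCA-40. Clec1b stood at 1.94 to 3.93 without tumours, 4.28 and 1.40 in OSCA-32, and 11.5 and 15.2 in OSCA-40, and Gp6 reached 11.5 in OSCA-40. Nrgn was listed at 0 in every library. Tmsb4x lost its call without any 1 of the 4 tumour-free libraries (adjusted p up to 0.0586). Ppbp lost its call without either week 0 library, the first PBS library or either OSCA-40 library (up to 0.0592). Both genes also lost their calls against PBS alone and against week 0 alone, and Ppbp with OSCA-32 alone as the tumour side. Over these other settings the adjusted p in limma reached 0.18 for Tmsb4x and 0.1765 for Ppbp.

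Of 11 tested hepatocyte genes, Apoe and Alb rose. Apoe (chromosome 7, 19696109 to 19699188), the lipid-carrying apolipoprotein made by hepatocytes and macrophages, stood at 7 and 3.93 at week 0, 8.74 and 11.4 with PBS, 39.9 and 27.9 in OSCA-32, and 54.4 and 60.6 in OSCA-40. It rose by 2.43 ± 0.32 (adjusted p = 0.00614, limma), and the lowest tumour library was more than 2-fold above the highest tumour-free one. Its tumour-free mean of 7.78 was also under the filter. Alb (chromosome 5, 90460897 to 90476602), which encodes serum albumin, stood at 10.0, 13.7, 6.80 and 12.4 without tumours and at 25.7, 19.5, 31.5 and 33.3 with them. Alb rose by 1.29 ± 0.24 (adjusted p = 0.0318). Its deposited values overlapped between the sides, so its rise rests on the scaling.

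Of the 22 hepatocyte genes 11 were tested, and 7 of these had tumour-free means under the filter, so that the number of positive fold changes on this list is no support for a rise. Beside Apoe and Alb, the separated genes were the fatty acid carrier Fabp1 (2.58 ± 0.62, adjusted p = 0.0689), the thyroid hormone carrier Ttr (1.13 ± 0.39), the protease inhibitor precursor Ambp (0.64 ± 0.23) and transferrin, Trf (0.55 ± 0.17), none past the threshold. The summed level of the 22 genes was 135 to 156 in tumour-free and 214 to 376 in tumour libraries. Acute phase genes, which the liver makes in inflammation, gave no call among 6 tested, with a median of 0.16. Apoe was called without each library in turn but not with PBS alone as the reference or with OSCA-32 alone as the tumour side (adjusted p up to 0.0634 over the other settings). Alb lost its call without any of the 4 tumour-free or either OSCA-40 library (up to 0.0935). That call was also lost against PBS alone, against week 0 alone and with OSCA-32 alone as the tumour side.

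**Figure D2:**
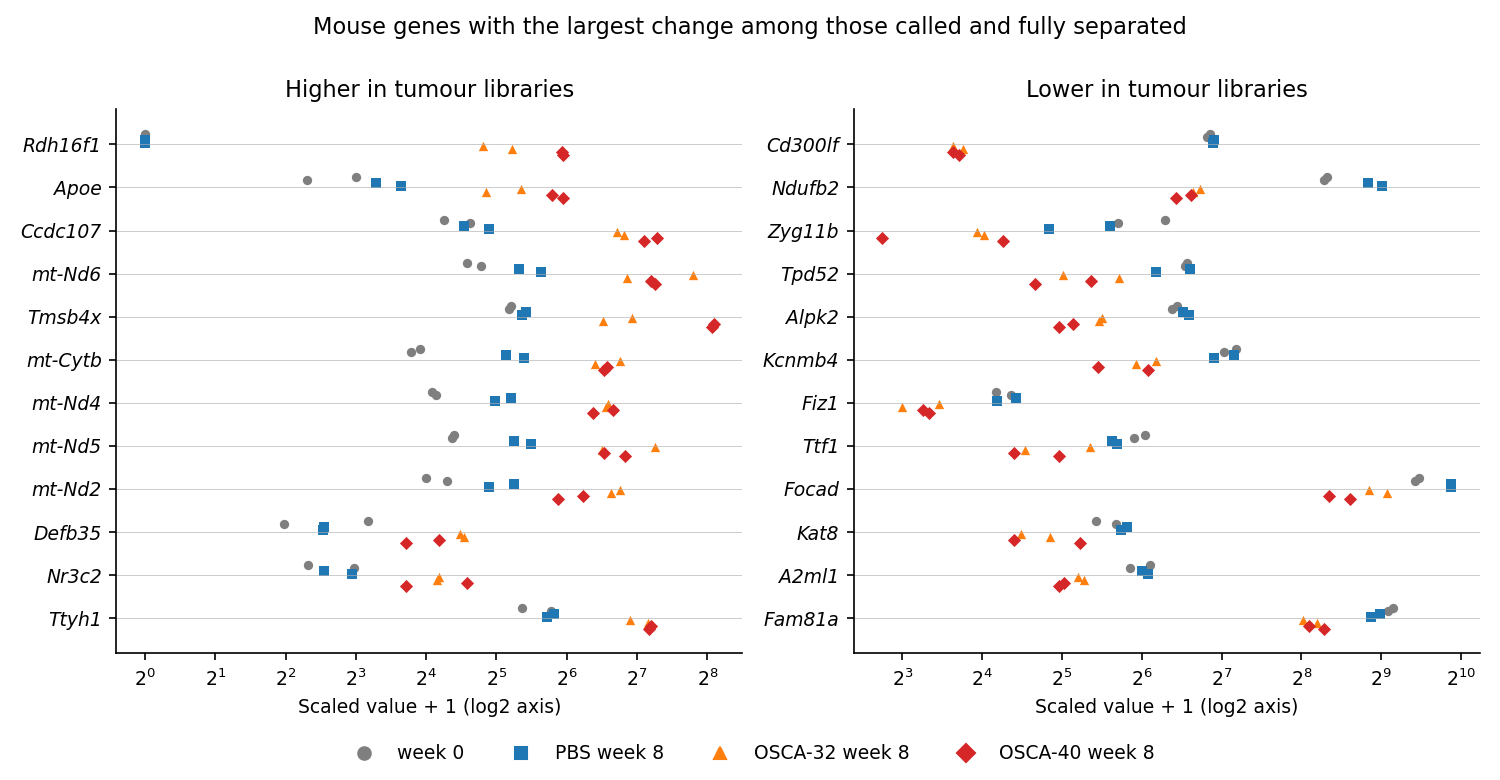
Scaled value + 1 in each of the 8 libraries (log2 axis) for the 12 higher and 12 lower genes with the largest fold change among those called and separated. Grey circles and blue squares are the week 0 and PBS libraries, orange triangles and red diamonds the OSCA-32 and OSCA-40 libraries; Cd300lf sits near 115 without tumours and near 12 with them in both lines.

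Mitochondrially encoded mRNAs were the group with the largest median change, 1.76 over 13 genes. Taken as listed, 5 rose, none fell, and 6 were separated. The 5 were mt-Nd2, mt-Nd4, mt-Nd5 and mt-Nd6, which encode core subunits of the NADH dehydrogenase, and mt-Cytb, which encodes cytochrome b of the next complex in the chain. The gene mt-Nd6 (mitochondrial genome, 13552 to 14070), the only protein gene on the light strand, stood at 23 and 26.5 at week 0, 38.9 and 48.6 with PBS, 221 and 114 in OSCA-32, and 146 and 152 in OSCA-40. It rose by 2.20 ± 0.26 (adjusted p = 0.00361, limma). The gene mt-Nd4 (10167 to 11544) stood at 16 and 16.7 at week 0, 35.9 and 30.5 with PBS, 95.5 and 93.4 in OSCA-32, and 100.2 and 81.8 in OSCA-40, and rose by 1.94 ± 0.25 (adjusted p = 0.0051). PBS libraries lay above week 0 libraries for both genes, although neither received tumour cells. The calls of mt-Nd4 and mt-Nd6 held with week 0 alone and with PBS alone as the reference. By contrast, mt-Nd2 and mt-Nd5 were not called against PBS alone (adjusted p up to 0.150 and 0.0678 over the settings). Without either week 0 library or the first OSCA-40 library mt-Nd2 and mt-Cytb lost their calls, as did mt-Cytb without the second OSCA-40 library (up to 0.0687 and 0.066).

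Of the remaining mitochondrial mRNAs, mt-Nd1 and mt-Atp8 have no nuclear copy on the list of genes. They had fold changes of 1.20 ± 0.46 and 1.13 ± 0.48, neither separated nor called (adjusted p = 0.22 and 0.27, limma). The others cannot be read one by one, because 7 of the 13 have such a copy. Among the 7 is mt-Nd4, but its copy Gm28439 was listed at 0 in every library. The copy Gm28661 on chromosome 1 is identical to mt-Co2, a cytochrome oxidase subunit gene, over 681 bases, which is all of the copy and 99.6% of mt-Co2. The end of both is shown, with the shared bases in capitals (GRCm38, chrM:7634-7696 on the plus strand and chr1:24614885-24614944 on the minus strand).
mt-Co2: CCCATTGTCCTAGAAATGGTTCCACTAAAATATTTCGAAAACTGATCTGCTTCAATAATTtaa
Gm28661: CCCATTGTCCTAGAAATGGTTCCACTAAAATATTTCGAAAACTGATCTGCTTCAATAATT
Only the last 3 bases of mt-Co2, its stop codon, are missing from the copy, so reads from either cannot be told apart over this length. The listed values alternated between them. As deposited, mt-Co2 was 4 and 4 at week 0, 67 and 84 with PBS, 106 and 122 in OSCA-32, and 9 and 4 in OSCA-40. Gm28661 was 24 and 28, 0 and 1, 0 and 0, and 57 and 47 in the same libraries. Alone, mt-Co2 had a log2 fold change of 1.53 ± 1.18 with overlapping sides. The scaled sum of the pair was 28.0 and 31.4 at week 0, 65.1 and 81.0 with PBS, 151 and 170 in OSCA-32, and 189 and 155 in OSCA-40. The sum was separated and rose by 1.81 ± 0.31 (adjusted p = 0.0213 in limma with near copies summed).

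The same held for mt-Atp6, an ATP synthase subunit gene whose copy Gm10925 is identical over 678 bases. The pair summed to 36 and 43.2 at week 0, 87.4 and 98.2 with PBS, 278 and 275 in OSCA-32, and 266 and 318 in OSCA-40, and rose by 2.21 ± 0.29 (adjusted p = 0.00555). For a pair of genes the sign changed. Alone, mt-Co3 and mt-Nd4l had fold changes of -0.44 ± 1.21 and -1.41 ± 1.76, and summed with their copies Gm28437 and Gm10222 of 1.92 ± 0.47 and 1.48 ± 0.39, both separated but not past the threshold (adjusted p = 0.0673 and 0.083). With copies summed, 8 of the 13 rose instead of 5, none fell, and 10 instead of 6 were separated. The exceptions to separation were mt-Nd1, mt-Atp8 and mt-Nd3. Summing was chosen after the data had been seen.

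**Figure D3:**
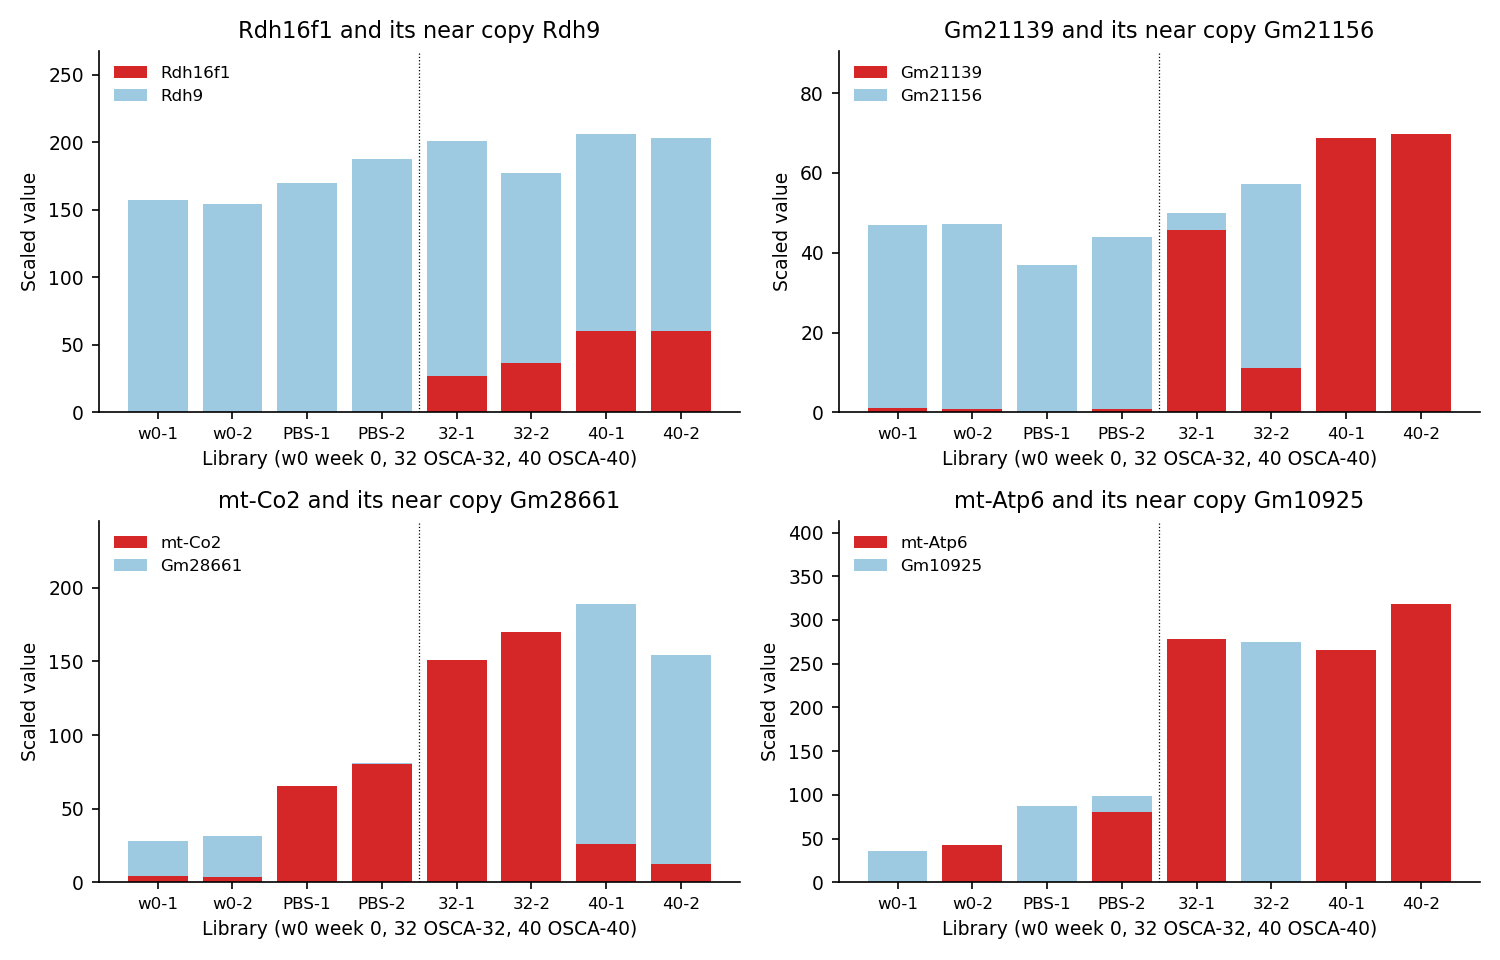
Stacked bars give the scaled value of a gene (red) and of its near copy (blue) in each library, with a dotted line between the 4 tumour-free and the 4 tumour libraries. The red part changes from library to library for mt-Co2 and mt-Atp6 while the whole bar is higher in all tumour libraries; for Rdh16f1 the whole bar overlaps between the sides.

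The share of the mouse total in the 13 mRNAs was 0.139% ± 0.030 (SD, n = 4) with tumours and 0.047% ± 0.029 without. The difference of 0.0915 percentage points gave 0.0286 as the two-sided p of an exact permutation over 70 splits, the smallest they allow, or 0.0429 adjusted over 3 such tests. By group, the share was 0.0205% and 0.0245% at week 0, 0.0617% and 0.0813% with PBS, 0.183% and 0.128% in OSCA-32, and 0.122% and 0.121% in OSCA-40. PBS libraries were thus between week 0 and tumour libraries. Without the first OSCA-32 library the difference was 0.0767 points (exact permutation p = 0.0571). Nuclear-encoded subunits of the same complexes showed another picture. Of 17 tested, none rose, 1 fell, 1 was separated as higher (Cox4i1, 0.42 ± 0.15) and 5 as lower, with a median of -0.18.

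A mitochondrial sequence also lies in an abundant gene called higher. Gm20594 (chromosome 6, 79817916 to 79818364), a predicted protein-coding gene, was listed at 372 and 351 at week 0, 595 and 654 with PBS, 1668 and 1523 in OSCA-32, and 2561 and 2364 in OSCA-40. It rose by 2.06 ± 0.24 (adjusted p = 0.00361, limma), in OSCA-40 above OSCA-32 by 0.63 (adjusted p = 0.00909). Its order of groups matched that of the mitochondrial mRNAs on the tumour-free side, with PBS above week 0. Its transcript shares a run of 65 bases with mt-Rnr2, the large ribosomal RNA of the mitochondrion, which has no value of its own here. The last 60 shared bases are in capitals and the following bases, where the transcripts part, in lower case (chr6:79818288-79818364 and chrM:2107-2186, both plus strand).
Gm20594: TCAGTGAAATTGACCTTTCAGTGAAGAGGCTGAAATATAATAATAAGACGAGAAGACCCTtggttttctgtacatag
mt-Rnr2: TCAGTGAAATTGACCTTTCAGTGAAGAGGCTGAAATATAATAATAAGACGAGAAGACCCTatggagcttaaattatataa
In all, 10.02% of the 31-base words of Gm20594 occur in another transcript, and whether its values come from mitochondrial ribosomal RNA was not tested.

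The gene with the largest fitted change, Rdh16f1 of the retinol dehydrogenase family (chromosome 10, 127759787 to 127792694), had a value of 0 in each tumour-free library. As deposited it stood at 19 and 26 in OSCA-32 and at 21 and 20 in OSCA-40 (adjusted p = 0.000562, limma). It was thus tested only through its tumour values. Its annotation is not independent of its neighbours. Of its 2766 exonic bases, 83.2% are also exon of Rdh9 and 16.8% of Rdh1, both on the same strand. Rdh9 was listed at 157, 157, 175 and 197 without tumours and at 122, 101, 51 and 47 with them. The scaled sum of Rdh16f1 and Rdh9 was 157, 154, 170 and 188 without tumours and 201, 177, 206 and 203 with them, so that the sides overlapped and the fold change was 0.24 ± 0.09 (adjusted p = 0.229).

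Gm21139, a processed pseudogene on chromosome Y (3349656 to 3350532), likewise has near copies among the listed genes. Its tumour-free mean of 0.734 was under the filter, so it too was tested only through its tumour values. Its deposited values were 1, 1, 0 and 1 without tumours, 32 and 8 in OSCA-32 and 24 and 23 in OSCA-40, and 96.3% of its 31-base words lie in Gm21156. That copy was listed at 46, 47, 38 and 45 without tumours and at 3, 33, 0 and 0 with them. For the family of 9 copies the fold change was 0.48 and was not called (adjusted p = 0.11 in limma with near copies summed). Unlike the sum of Rdh16f1 and Rdh9, the family stayed separated as higher, by a gap of 0.14 on the log2 scale. Of the genes called, 6 of 46 higher and 6 of 33 lower genes shared at least 50% of their 31-base words with other genes, 13.04% and 18.2%, against 8.94% of all tested genes.

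Among genes that fell, Cd300lf (chromosome 11, 115116214 to 115133992), an inhibitory receptor of monocytes, macrophages and other myeloid cells, had the smallest p of all mouse genes. It stood at 115 and 112 at week 0, 119 and 118 with PBS, 11.4 and 12.6 in OSCA-32, and 11.5 and 12.1 in OSCA-40. Within a side the values hardly varied, and the nearest libraries of the sides were 3.06 apart on the log2 scale. Cd300lf fell by 3.18 on the log2 scale (SE 0.09, adjusted p = 2.98e-07, limma), and the lines differed by -0.02 (adjusted p = 0.954). The deposited values in OSCA-40 were 4 and 4, so differences between libraries smaller than 1 listed unit are hidden there.

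Other myeloid genes gave no call. Of 18 monocyte and macrophage markers 3 were tested, and apart from Cd300lf these were the chemokine receptor gene Ccr2 and Ms4a7, with fold changes of 0.08 ± 0.17 and 0.02 ± 0.12. The lineage markers Csf1r, Adgre1 and Cd68 did not exceed 4.77 in any library. The summed level of the 18 markers was 202 to 239 without tumours and 112 to 140 with them, of which Cd300lf alone held 112 to 119 and 11.4 to 12.6.

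Ndufb2 (chromosome 6, 39592574 to 39603382), an accessory subunit of the NADH dehydrogenase, stood at 318 and 311 at week 0, 455 and 516 with PBS, 106 and 99.0 in OSCA-32, and 97.3 and 84.8 in OSCA-40. It fell by 2.01 on the log2 scale (SE 0.17, adjusted p = 0.000562, limma), the opposite direction to the mitochondrial subunits of its complex. Ndufs7, a core subunit, was separated as lower at -0.84 ± 0.18 without passing (adjusted p = 0.0531). The median gene of the 44 on the list stood at a deposited value of 8.63 in the tumour-free libraries, far below Ndufb2, and whether the values of Ndufb2 come from its mRNA was not tested.

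Ddr2 (chromosome 1, 169972307 to 170110762), a collagen-binding receptor kinase of fibroblasts and bone-forming cells, stood at 189, 158, 202 and 184 without tumours and at 94.1, 103, 100.2 and 103 with them. It fell by 0.86 (SE 0.09, adjusted p = 0.00203, limma), and tumour libraries of both lines lay within a narrow band. In the fibroblast and stromal list 1 of 6 tested genes fell and 2 were separated as lower, the other being Ltbp1, a binding protein of latent TGF-beta, at -0.66 ± 0.19 (adjusted p = 0.108). The collagen genes Col1a1 and Col6a3 had fold changes of -0.44 ± 0.23 and 0.59 ± 0.28, neither past the threshold.

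The 10 other established genes among the 12 largest falls spanned several functions. Zyg11b, a substrate receptor of a ubiquitin ligase, stood at 77, 51.0, 47.6 and 27.7 without tumours and at 14.3, 15.3, 5.72 and 18.2 with them, a fall of 1.86 (SE 0.38, adjusted p = 0.0434, limma). Kcnmb4, an auxiliary subunit of the large-conductance calcium-activated potassium channel, fell by 1.16 (SE 0.16, adjusted p = 0.00648) from 119 to 144 down to 42.9 to 71.3. Kcnma1, the pore-forming subunit of that channel, rose by 0.87 ± 0.15 (adjusted p = 0.0236) and is named after its values were seen. Of the exonic bases of Kcnmb4, 20.9% lie opposite the antisense gene Kcnmb4os2. Tpd52, of a family linked to vesicle traffic, fell by 1.29, Alpk2, an alpha-type kinase, by 1.21, and Fiz1, a zinc finger protein, by 1.02. Ttf1, the terminator of ribosomal RNA transcription, fell by 1.00, Focad, focadhesin, by 0.94, Kat8, a histone acetyltransferase, by 0.93, and A2ml1, a protease inhibitor of the macroglobulin family, by 0.90. Fam81a fell by 0.88 (SE 0.09, adjusted p = 0.00132), from 469 to 566 down to 259 to 309.

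How firmly these falls stood differed. Alpk2, Kcnmb4, A2ml1, Fam81a, Ddr2, Ndufb2 and Cd300lf were called without each of the 8 libraries in turn. Of these, Kcnmb4 and A2ml1 lost their calls against PBS alone and against week 0 alone (adjusted p up to 0.132 and 0.108, limma). Alpk2 and Ddr2 lost theirs against week 0 alone (up to 0.0651 and 0.0555). Ttf1 kept its call only without the first OSCA-32 library (adjusted p up to 0.129 otherwise). Focad lost its call without each tumour-free library and each OSCA-40 library (up to 0.0998), and Kat8 without each tumour-free library, the first OSCA-32 and the first OSCA-40 library (up to 0.131). Zyg11b lost it without either week 0 library, the first PBS or either OSCA-40 library (up to 0.117), Fiz1 without each tumour-free library (up to 0.0946), and Tpd52 without either week 0 or the first PBS library (up to 0.0755). Ttf1, Focad, Kat8, Zyg11b, Fiz1 and Tpd52 also lost their calls against PBS alone and against week 0 alone. The direction was kept in each case. With the 4 groups of libraries as random blocks, which takes up their shared deviations, 55 mouse genes were called instead of 79. Zyg11b, Kat8 and Ttf1 then lost their calls.

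Defb35 and Nr3c2 were the remaining established genes named for their rise. Defb35, a beta-defensin, stood at 8, 2.94, 4.86 and 4.77 without tumours and at 21.4, 22.3, 17.2 and 12.1 with them, a rise of 1.67 ± 0.31 (adjusted p = 0.0318, limma). Nr3c2, the mineralocorticoid receptor, stood at 4, 6.87, 4.86 and 6.67 and at 17.1, 16.7, 22.9 and 12.1, a rise of 1.46 ± 0.27 (adjusted p = 0.0294). Both had tumour-free means under 10 (5.14 and 5.60), so they entered the test only through their tumour values (means 18.3 and 17.2), and 1 listed unit of OSCA-40 is a large part of these values. Defb35 lost its call without the second week 0, either PBS, either OSCA-32 or the first OSCA-40 library (up to 0.0952), and Nr3c2 without any tumour-free library (up to 0.0924). Both also lost their calls against PBS alone and against week 0 alone, and Defb35 with OSCA-32 alone as the tumour side.

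Further called genes with known roles, named after their values were seen, were these. Fth1, the heavy chain of the iron store ferritin, rose by 1.33 ± 0.26 (adjusted p = 0.0359, limma). Iscu, the scaffold on which iron-sulfur clusters are built, fell by 0.83 (SE 0.17, adjusted p = 0.0434), and Slc39a14, an importer of zinc and iron, fell by 0.86 (SE 0.14, adjusted p = 0.0172). Mrc2, an endocytic collagen receptor, rose by 0.84 ± 0.16, and Mkx, a homeobox factor of tendon, by 0.83 ± 0.14. Tigit, an inhibitory receptor of T and NK cells, fell by 0.44 on the common scale (SE 0.08, adjusted p = 0.0354, limma). Its deposited values were 217 to 228 without tumours and 125, 117, 52 and 48 with them. These are not scaled for the lower mouse share and overstate the fall. Of the T and NK cell list, 3 of 18 genes were tested and none was called.

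Osteoclast genes, which serve bone resorption, all had positive fold changes among the 6 of 15 tested, against 49.75% of all tested genes. Of the 6, 1 was called and 3 were separated, with a median of 0.24. Clcn7 (chromosome 17, 25133391 to 25162104), the chloride transporter that accompanies acid secretion, stood at 410, 445, 422 and 418 without tumours and at 553, 589, 632 and 776 with them. It rose by 0.58 ± 0.11 (adjusted p = 0.0294, limma), whereas on library totals alone it was lower with tumours by 0.48 (adjusted p = 0.129). Its partners Tcirg1 (0.55 ± 0.16, adjusted p = 0.11) and Atp6v0d2 (0.31 ± 0.13, adjusted p = 0.247), subunits of the proton pump, were separated but not called. The summed level of the list was 655 to 723 without tumours and 868 to 1130 with them. Of these sums, Clcn7 alone held 410 to 445 and 553 to 776. The resorption enzyme genes Acp5, Ctsk and Mmp9 did not exceed 8.83. Clcn7 lost its call without each tumour-free library or the first OSCA-40 library (up to 0.0993). That call was also lost against PBS alone and against week 0 alone.

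Most other lists showed no called gene. None of 7 osteoblast and bone matrix, 10 interferon-stimulated, 29 cytosolic ribosomal, 13 hypoxia and glycolysis, 7 cell cycle, 9 osteosarcoma-linked, 8 endothelial or 6 skeletal muscle genes tested was called. Their medians lay between -0.26 and 0.13. No call was made either among 4 neutrophil, 1 B cell, 2 adipocyte, 1 cytokine and 3 histone genes, lists with few members above the level needed for testing. Of 11 tested cytoskeletal genes only Tmsb4x was called. The 9 tested erythroid genes all had positive fold changes, against 49.75% of all tested genes. Their median was 0.28, and 1 was separated, Epb42 (0.16 ± 0.12). Of 5 tested genes of MHC class I antigen presentation none was called, and the median was 0.04. Fold changes were positive for 3 and negative for 2, with 1 gene separated as higher and 1 as lower. The summed level of that list was 374 to 453 without tumours and 276 to 393 with them. The gene separated as higher was B2m, which encodes the invariant light chain of those molecules. B2m stood at 9, 7.85, 9.71 and 10.5 without tumours, 21.4 and 13.9 in OSCA-32, and 45.8 and 45.5 in OSCA-40. Its tumour-free mean of 9.26 was under the filter, so it was tested only through its tumour values. Its sides were separated, but its fold change of 1.52 ± 0.36 did not pass (adjusted p = 0.0664, limma). Among the 9 tested vesicle components 1 was separated, Cd9, at -0.84 ± 0.24 (adjusted p = 0.11).

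**Figure D4:**
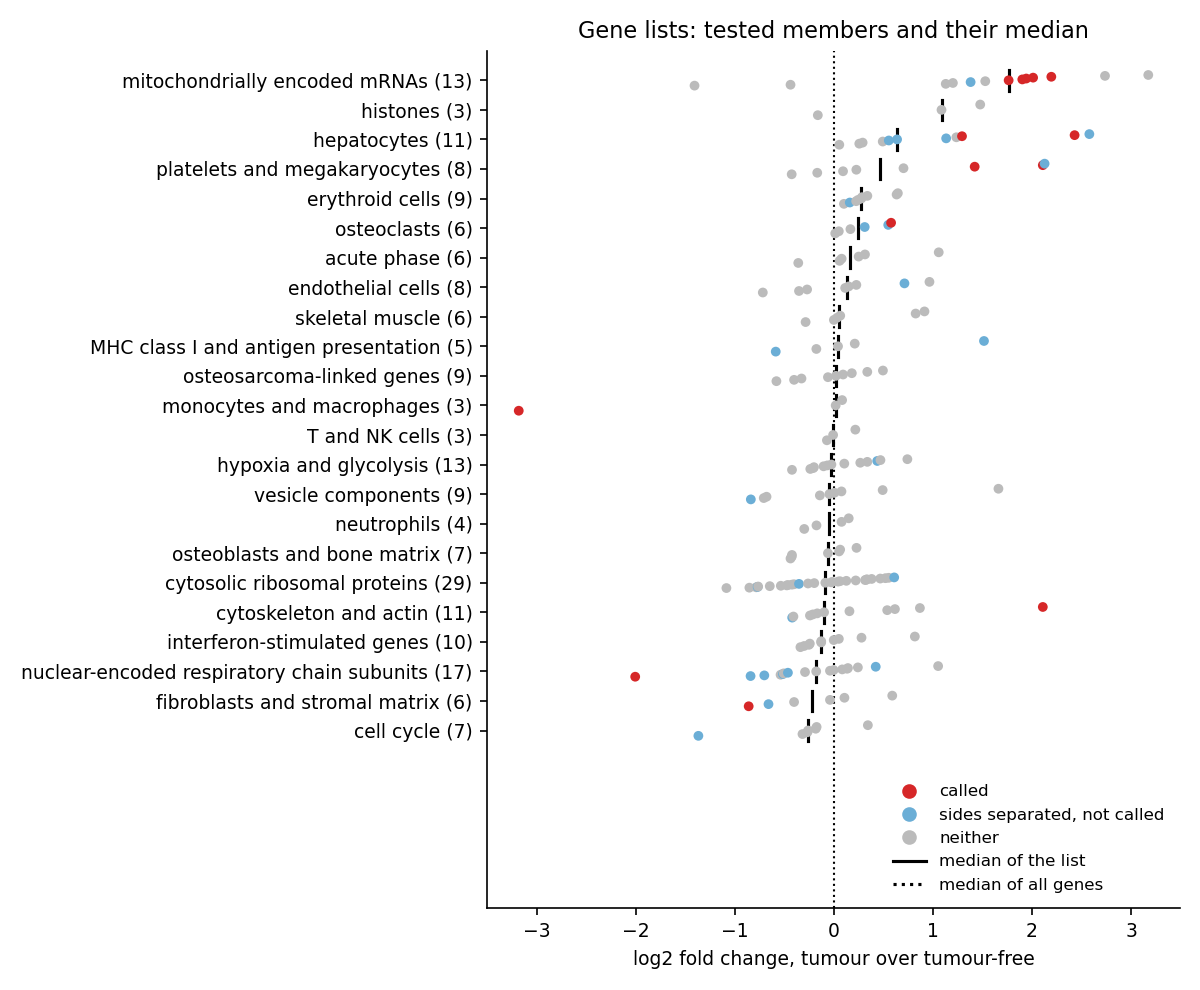
Log2 fold change of tumour over tumour-free libraries for the tested members (number in brackets) of each gene list with at least 3 tested, ordered by the list's median (black bar). Red points were called by limma, blue points were separated without a call, and the dotted line is the median of all tested mouse genes; mitochondrial mRNAs have the highest median, 1.76.

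The lines did not contribute alike. OSCA-40 lay further from the tumour-free side than OSCA-32 for 264 of the 340 separated higher genes and 209 of the 285 separated lower genes. Between the lines 140 mouse genes were called (2.31%), 65 higher and 75 lower in OSCA-40, and these included 24 of the separated higher and 18 of the separated lower genes. Tmsb4x was higher in OSCA-40 by 1.35 (adjusted p = 0.0044, limma), Pf4 by 1.78 (adjusted p = 0.0148) and B2m by 1.35 (adjusted p = 0.0334). Wapl, which releases cohesin from chromosomes, stood at 709, 659, 1145 and 1060 without tumours, 468 and 522 in OSCA-32 and 206 and 251 in OSCA-40. Its sides were separated, its fold change of -1.37 ± 0.32 did not pass (adjusted p = 0.0648), and OSCA-40 was lower than OSCA-32 by 1.11 (adjusted p = 0.00353). Cd300lf, Ccdc107, Ttyh1, Ddr2 and the 5 called mitochondrial mRNAs gave no call between the lines (adjusted p of 0.146 or more). With OSCA-32 alone as the tumour side 45 genes were called, and with OSCA-40 alone 593, settings chosen after the data had been seen.

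The tumour-free groups differed in time as well as treatment. PBS lay nearer to the tumour libraries than week 0 did for 155 of the 340 higher and 122 of the 285 lower genes. With PBS alone as the reference, which matches the week, 13 genes were called, and with week 0 alone 21. Of 31 called genes named by rule, all but Gm10780, 7 were called under every setting in which they were tested and without each library, namely Ccdc107, Cd300lf, Ndufb2, Fam81a, mt-Nd4, mt-Nd6 and Gm20594.

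The most abundant mouse genes were mostly predicted genes with repeated sequence. The top 10 held 40.3% ± 3.47 (SD, n = 4) of the mouse total with tumours and 38.4% ± 1.10 without, which did not differ beyond the spread (exact two-sided permutation p = 0.371). The highest, Gm10800, stood at 150216 to 171847 without tumours and 143025 to 184173 with them, and was not separated. The toll-like receptor gene Tlr1, a sensor of bacterial lipopeptides in myeloid cells, was among the 10 at 8867 to 9848 without tumours and 11470 to 15868 with them. It was separated at 0.54 ± 0.12 without passing (adjusted p = 0.0588, limma). The pseudogene Gm10780 was the only 1 of the 10 called, at -0.69 ± 0.12 (adjusted p = 0.0239). Gm29013 stood at 4669 to 8537 without tumours, 18047 and 13340 in OSCA-32, and 64501 and 48351 in OSCA-40, and just missed the threshold (2.23 ± 0.47, adjusted p = 0.0504).

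Fewer mouse genes were listed at all in the tumour libraries. At a deposited value of 1 or more there were 28184, 28072, 28467 and 28143 genes without tumours, 26706 and 27170 in OSCA-32, and 23575 and 23365 in OSCA-40. The difference of -3012.5 genes had an exact two-sided permutation p of 0.0286, adjusted 0.0429. The listing moved with the mouse share of each library. A deposited value of 1 was worth 0.954 to 1 units of the common scale without tumours. It was worth 1.395 and 1.426 in OSCA-32 and 2.86 and 3.03 in OSCA-40. The p therefore cannot tell a change in host transcripts from the lower mouse share. Of 1809 genes absent from the lists of all tumour libraries, 113 had a value in each tumour-free one. The part of the lower mouse share in this count was not tested. The reverse pattern held for 7 of 1493 genes: Rdh16f1, Trim5, Catsper3, Trav9n-4 and the pseudogenes Gm15109, Vmn2r-ps52 and Gm18062. Trim5, a restriction factor against retroviruses, was listed at 10 and 11 in OSCA-32 and 7 and 6 in OSCA-40, and Catsper3, a sperm calcium channel subunit, at 3, 4, 1 and 1. Of the 7, all but Catsper3 share more than 50% of their 31-base words with other mouse genes.

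**Figure D5:**
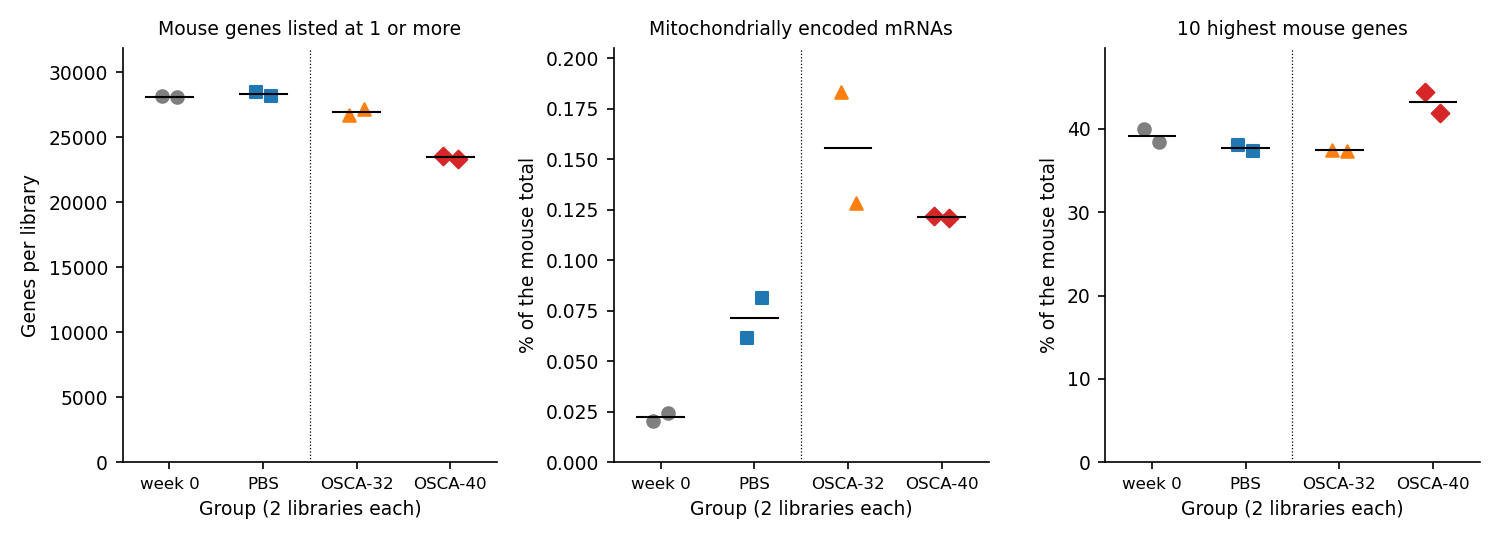
Values of each library by group: mouse genes at a deposited value of 1 or more, and the percentage of the mouse total in mitochondrially encoded mRNAs and in the 10 highest mouse genes, with the group mean as a bar and all axes from 0. Tumour libraries hold fewer listed genes (23365 to 27170) and a larger mitochondrial share (0.121% to 0.183%) than every tumour-free library, whereas the share of the top 10 overlaps.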

How the data were processed

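Serum vesicles were enriched with ExoQuick, and libraries were made with a stranded total RNA kit for small inputs, per the labels' protocols. FastQC 0.11.5, Trimmomatic 0.33.0 and kallisto 0.43.0 are named in the submitters' processing notes, with builds GRCm38.p5 and CanFam3.1; the sources used here give neither index nor filters. The table deposited by the authors lists 31300 mouse and 20716 canine genes with a whole number in each library. These values are treated as a score: the submitters' processing notes name kallisto but not how the authors made whole numbers from its output, and the deposited score behaves as rounded TPM over both species. Depth is not kept, so no count test, interval or floor is used.

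Each library was divided by an unweighted trimmed mean of log ratios over mouse genes (30% of ratios, 5% of levels trimmed at each end) to the first week 0 library. Genes with a mean scaled value of at least 10 (6052 mouse, 215 canine) entered limma 3.58.1 (R 4.3.3) on log2(value + 1), with side as the only term, a variance trend and Benjamini-Hochberg adjustment over all 6267 genes at 0.05. This scale understates changes of low genes. A fit with a mean per group gave the contrast of the lines. Single values used exact permutation tests (SciPy 1.17.1). The procedure was tested on simulated data. Replicate numbers did not pair libraries (correlations of deviations -0.0704 to -0.00153).

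Symbols and transcripts came from GENCODE mouse release 21 (GRCm38), which matched 31171 mouse identifiers. Words of 31 bases measured shared sequence, and genes sharing at least 50% of them were summed as a family in an alternative. Named genes were the 12 higher and 12 lower with the largest change among called, separated genes with established symbols; up to 3 called members of each of 26 gene lists, or the member with the smallest p; the 5 largest gaps each way; the 10 most abundant; and those at 0 on 1 side alone. Exceptions are marked. Members and lists were chosen with earlier results of these data known. Alternatives covered scaling, filter, pseudocount, variance trend, blocks, reference group, line and each library left out.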

Additional observations from a re-analysis of the deposited data

Results flagged for a closer look

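For 7 of 36 genes compared, the lines differed by their own test (limma, mean per group, OSCA-40 minus OSCA-32 on the log2 scale): Tmsb4x by 1.35, Pf4 by 1.78, B2m by 1.35, Gm20594 by 0.63, Cd9 by -0.95, Wapl by -1.11 and the pseudogene Gm44060 by -2.33. Gm44060 stood at 401, 354, 605 and 422 without tumours, 130 and 102 in OSCA-32, and 20 and 24.2 in OSCA-40, and was called lower with tumours (adjusted p = 0.0294, limma). That call was lost without any tumour-free library or either OSCA-40 library (adjusted p up to 0.104), and against PBS alone or week 0 alone. The tetraspanin Cd9 stood at 151 and 163 in OSCA-32 and at 83.0 and 78.8 in OSCA-40. In each case the OSCA-40 libraries lay further from the tumour-free side.

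A single library stood apart within a side in 3 of 78 groups of 4 values looked at, where chance gives about 1 in 20. The gap to the nearest library, as a part of the range, was 0.842 for Tpd52 in the second PBS library, which was the lowest tumour-free value at 71.5, and 0.954 for Gm21139 in the first PBS library, listed at 0 where the others were at 1. It was 0.883 for the share of mitochondrial mRNAs among tumour libraries, where the first OSCA-32 library was the highest.

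The canine share of the library, outside the mouse measurements, was higher with tumours by 40.9 percentage points. Its part in the mouse values was not tested.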

How the results depend on the processing

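On library totals alone the count of called genes was 3414 (14 higher), of separated genes 2664 (8 higher) and of genes called between the lines 3359 (8 higher), since the canine share then lowers nearly all mouse genes. The 79 calls became 175 with a mean of at least 50, 40 with no filter, 34 with no variance trend, 359 with a mean per group, 55 with groups as random blocks, 13 against PBS alone, 21 against week 0 alone, 45 with OSCA-32 alone and 593 with OSCA-40 alone. The 625 separated genes became 245 and 1690 with those filters, and 327 of 725 were higher where a value of 10 in 2 libraries was required. The 140 calls between the lines became 687 with no filter and 54 with no trend. On mouse totals 68.2% instead of 58.2% of the 79-gene comparison's calls were higher, and 16.3% instead of 46.4% between the lines. With the replicate number as a block, though the numbers did not pair libraries, 36 and 85 genes were called. Leaving out 1 library gave 19 to 167 calls (fewest without the first week 0 library, most without the second OSCA-32 library), 817 to 1103 separated genes and 74 to 145 calls between the lines. The difference in listed genes was then -3667.8 to -2399.5 (exact permutation p 0.0857 without any tumour-free library), and in mitochondrial share 0.0767 to 0.103 points. That share of the whole library differed by 0.0222 points (exact permutation p = 0.286). The share of the top 10 genes turned to -15.3 points of the whole library (exact permutation p = 0.0286), and Clcn7 to -0.48 on library totals. The other 30 of 31 called genes named by rule (all but Gm10780) kept their direction throughout, and 16 of the 31 kept their call without each library. Where not stated, the cause was not tested. Depth is unknown, so nothing is said of genes not listed.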
